A study of Mus musculus with 38 samples.

Results

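The 10 cardiac transcription factors Tbx5, Tbx20, Gata4, Gata6, Nkx2-5, Mef2a, Mef2c, Mef2d, Hand2 and Srf were followed across the 4 groups of a mouse heart RNA-Seq study. They were chosen by name, as members of the core DNA-binding network of heart muscle, and are 10 of the 29564 genes listed in the deposited tables. All 10 had enough counts to be tested, among 13765 genes tested in all. RNA came from the left ventricle of 38 mice, with 1 library per mouse.

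All mice carried the label wild type (WT) and the strain label C57BL6. The non_failing group (n = 8) held healthy mice given vehicle. Mice of the other groups had heart failure with preserved ejection fraction (HFpEF), brought on by a high-fat diet (HFD) together with L-NAME, a compound that blocks nitric oxide synthesis. Of these, 8 received vehicle (HFpEF+Veh), 11 received TYA-018, which inhibits the deacetylase HDAC6 (HFpEF+TYA-018), and 11 received empagliflozin, which inhibits the glucose transporter SGLT2 (HFpEF+SGLT2i), by mouth once daily. The labels give the sex as female and the methods of the study give it as male, and neither the labels nor the text used here ties an age to a library. Libraries are named below by the mouse number in their titles, such as V2523. The comparisons ask how the model changed the expression of these factors, whether either drug changed it in the model, and how the drug-treated hearts compared with each other and with healthy hearts.

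The factors belong to several families of DNA-binding proteins. TBX5 and TBX20 are T-box proteins, GATA4 and GATA6 are zinc finger proteins that bind GATA sequences, and NKX2-5 is a homeodomain protein; they bind each other and switch on genes of the contractile apparatus and conduction. MEF2A, MEF2C and MEF2D, together with SRF, are MADS-box proteins that tie muscle gene expression to calcium, stretch and the actin cytoskeleton, and HAND2 is a basic helix-loop-helix protein needed to build the right ventricle.

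On the GRCm38 assembly (GENCODE annotation), Tbx5 lies at chr5:119832668-119885219 on the plus strand, Tbx20 at chr9:24718138-24774303 on the minus strand and Gata4 at chr14:63198922-63271692 on the minus strand. Nkx2-5 and Srf share chromosome 17, at chr17:26838664-26845009 and chr17:46548329-46556175, both on the minus strand. The Mef2 genes lie apart, with Mef2a at chr7:67231163-67372858 on the minus strand, Mef2c at chr13:83504034-83667080 on the plus strand and Mef2d at chr3:88142372-88172086 on the plus strand. Hand2 lies at chr8:57320983-57324633 on the plus strand. All are annotated as protein-coding, with between 1 transcript (Hand2) and 31 transcripts (Mef2c). Hand2 overlaps Hand2os1 on the other strand, Mef2a overlaps Lysmd4, Mef2d overlaps 1700113A16Rik, Srf overlaps Gm26904 and Gata6 overlaps 1010001N08Rik. The sources do not say whether strand was used in counting, so reads of those stretches may belong to either gene.

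The 250 bases before the annotated start are printed for Mef2a and Mef2d, on which the comparisons with healthy hearts turn, and for Hand2 and Srf, whose sequences hold matches to motifs of the factors themselves. They are RefSeq sequences of GRCm38.p6, 5′ to 3′ on the strand of the gene, at chr7:67372859-67373108 (minus) for Mef2a, chr3:88142122-88142371 (plus) for Mef2d, chr8:57320733-57320982 (plus) for Hand2 and chr17:46556163-46556412 (minus) for Srf. The starts used for these windows can differ from the GENCODE bounds given above, and the window of Srf overlaps the bounds of its gene. Capitals mark every match, on either strand, to a GATA site, NKE, T-box site, MEF2 site, CArG box or TATA box.
Mef2a: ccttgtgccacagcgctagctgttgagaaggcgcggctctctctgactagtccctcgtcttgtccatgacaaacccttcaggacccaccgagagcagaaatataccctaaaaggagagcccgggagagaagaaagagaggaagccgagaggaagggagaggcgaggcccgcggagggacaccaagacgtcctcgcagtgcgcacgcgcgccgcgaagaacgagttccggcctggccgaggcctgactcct
Mef2d: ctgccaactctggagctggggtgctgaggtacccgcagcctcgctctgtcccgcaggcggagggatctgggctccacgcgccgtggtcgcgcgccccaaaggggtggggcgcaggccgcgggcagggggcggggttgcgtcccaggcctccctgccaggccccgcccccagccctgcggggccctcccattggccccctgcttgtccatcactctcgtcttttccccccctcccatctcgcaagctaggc
Hand2: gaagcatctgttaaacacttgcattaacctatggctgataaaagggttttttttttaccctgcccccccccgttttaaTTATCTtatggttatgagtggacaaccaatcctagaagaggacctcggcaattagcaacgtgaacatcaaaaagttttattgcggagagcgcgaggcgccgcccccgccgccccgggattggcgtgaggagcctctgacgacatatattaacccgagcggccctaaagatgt
Srf: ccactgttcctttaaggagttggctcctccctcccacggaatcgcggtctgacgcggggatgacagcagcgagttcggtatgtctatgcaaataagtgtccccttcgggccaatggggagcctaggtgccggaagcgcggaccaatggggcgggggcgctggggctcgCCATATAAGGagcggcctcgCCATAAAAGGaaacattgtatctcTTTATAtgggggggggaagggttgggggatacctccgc

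Of the 10 genes, 7 were matched to a RefSeq promoter entry, and Tbx5, Gata4 and Gata6 were not. The window of Nkx2-5 lies inside the GENCODE bounds given for that gene. Matches were counted in the 250 bases before the start and on both strands, for the GATA site (the letters AGATAA), the NKX2-5 site called NKE (the letters TNAAGTG), the T-box site (the letters AGGTGT), the E-box that HAND2 binds with a partner (the letters CANNTG), the TATA box (the letters TATAAA), the MEF2 site and the CArG box, which SRF binds. Srf held 2 CArG boxes, starting 82 and 62 bases before its start, and a TATA box 38 bases before it. A CArG box was found in 1.47% of all 32851 promoters searched and a TATA box in 12.4%. Hand2 held a GATA site 172 bases before its start, a motif in 9.99% of promoters. At the second start of Mef2c a T-box site stood 216 bases upstream, a motif in 11.8% of promoters, and TATA boxes stood 107 bases before its first start and 22 bases before its second. NKE letters occurred in 10.1% and the MEF2 site in 2.92% of promoters and in none of the members' windows. The E-box, left in lower case, occurred in 66.2% of promoters and in those of Hand2, Nkx2-5 and Mef2c. No letters of these motifs were found in the windows of Tbx20, Mef2a and Mef2d.

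Depth, given as the total of expected counts, ran from 21451631 to 59280407 per library, with a median of 29527632. Markers matched the ventricular part of the label, and left against right ventricle was not checked. Myl2, the ventricular myosin light chain, lay between 5697 and 11483 CPM (counts scaled to library size) and the ventricular factor Irx4 between 17.2 and 34.4 CPM. The 4 atrial markers summed to 1.52 to 9.04 CPM, of which Myl4 gave up to 7.13 CPM (V2573), Myl7 up to 2.01 CPM and Sln up to 0.85 CPM. HFpEF+Veh V2523 stood furthest apart and held 1642 CPM of the 6 hepatocyte markers, of which Alb alone gave 1141 CPM, against a group median of 6.70 CPM. Non_failing libraries also held these markers, between 27.5 and 375 CPM (V2504, the highest), all above the drug groups, in which no library passed 13.4 CPM, so the signal also separates healthy from drug-treated hearts. Its part in the results was not tested, and the factors and the called genes of the other lists are also given without V2523. In bulk RNA from whole tissue, fewer cells of a type and less RNA per cell cannot be told apart. The 10 cardiomyocyte markers summed to 37776 to 52984 CPM in non_failing (median 46949), 37279 to 43533 in HFpEF+Veh (41590), 35833 to 45184 in HFpEF+TYA-018 (43659) and 28838 to 44788 in HFpEF+SGLT2i (41135), and the part of this difference in the results below was not tested.

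By level, the 10 factors fell into an abundant and a scarce set. Over the 38 libraries the mean of Nkx2-5 was 34.9 TPM (transcript abundance scaled for length and depth), above that of 90.8% of the genes tested. Mef2d (28.3 TPM), Mef2a (23.3 TPM), Hand2 (18.7 TPM), Gata4 (16.5 TPM), Srf (15.7 TPM) and Gata6 (13.5 TPM) followed, all above the mean of at least 78.8% of tested genes. Tbx20 (3.30 TPM), Tbx5 (2.84 TPM) and Mef2c (1.23 TPM) were scarce, above 46.5%, 43.2% and 26.6% of tested genes.

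The gap between the sets was complete, since Gata6 exceeded Tbx20 in 38 of 38 libraries. Of the other neighbours in the order, Tbx5 exceeded Mef2c in 37 libraries, Mef2a exceeded Hand2 in 35, Mef2d exceeded Mef2a in 32, Srf exceeded Gata6 in 31 and Nkx2-5 exceeded Mef2d in 30. The order was least steady for Gata4 over Srf (27 libraries), Hand2 over Gata4 (24) and Tbx20 over Tbx5 (22), whose ranges overlapped. The order of Mef2d and Mef2a changed between groups: Mef2d was the higher in 3 of 8 healthy mice, in 8 of 8 HFpEF+Veh mice, and in 10 of 11 mice given TYA-018 and 11 of 11 given empagliflozin. Tbx20 was higher than Tbx5 in 7 of 8 libraries of each vehicle group, but in 5 of 11 and 3 of 11 libraries of the drug groups.

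Mouse-to-mouse variation differed widely among the factors. The biological coefficient of variation fitted by edgeR, which leaves out counting error, was 8.87% for Mef2a, 11.3% for Mef2d and 13.5% for Gata6, below the median of 18.1% over all tested genes. It was 19.0% for Nkx2-5, 19.5% for Tbx5, 21% for Srf, 21.4% for Gata4, 25.5% for Hand2, 32.8% for Tbx20 and 52.1% for Mef2c. Differences of a size that the test called for Mef2a would therefore lie well inside the spread of Tbx20 or Mef2c.

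**Figure D1:**
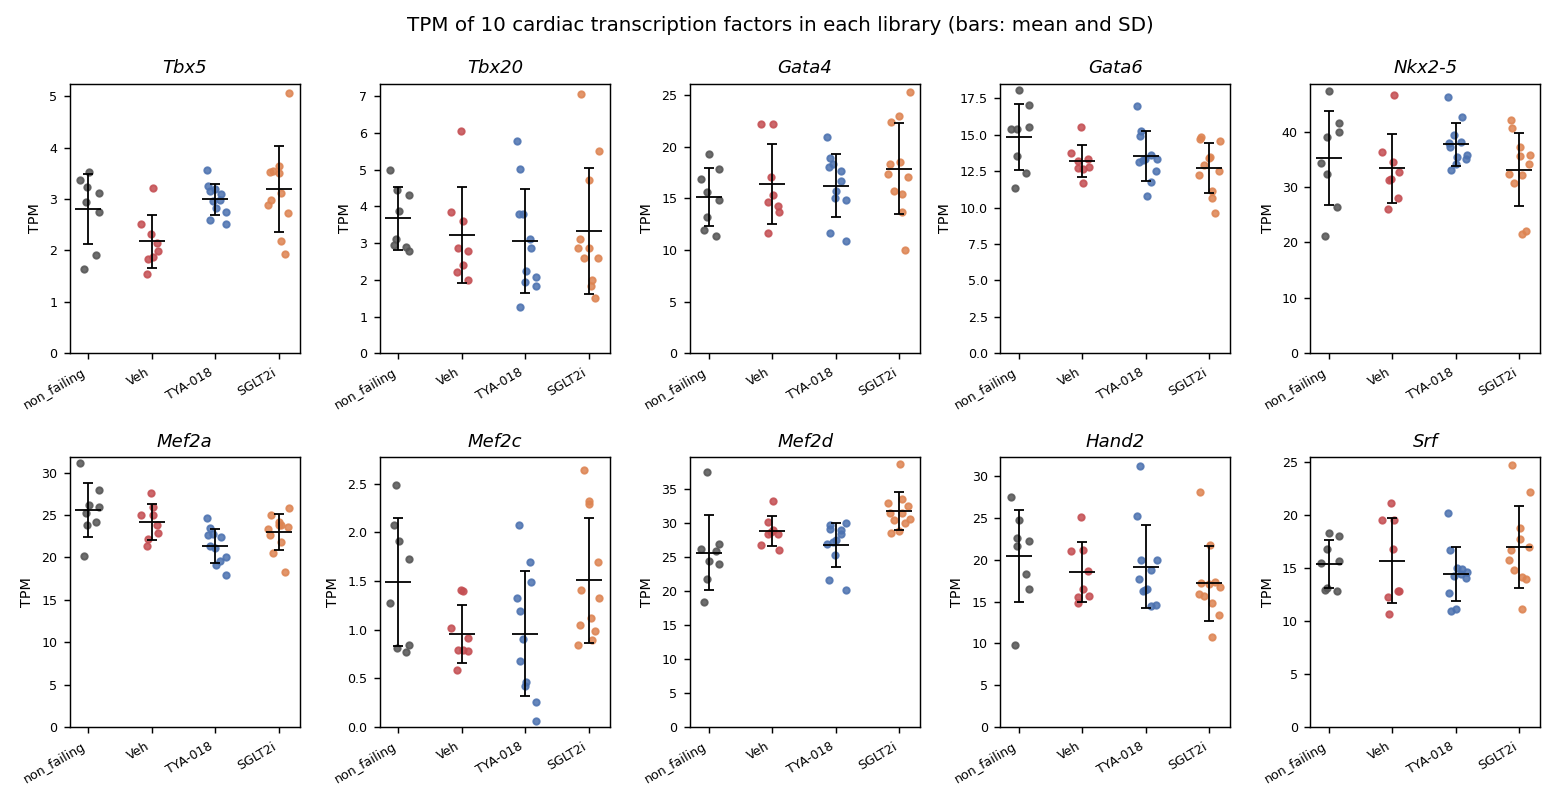
TPM of each of the 10 cardiac transcription factors (vertical axes, linear and starting at 0) in every library, by group on the horizontal axis (8 mice each in non_failing and HFpEF+Veh, 11 in each drug group). Points are libraries and bars are the mean and SD. Tbx5 is lowest in HFpEF+Veh, with a mean of 2.18 TPM, Mef2d is highest in HFpEF+SGLT2i, with a mean of 31.6 TPM, and the groups overlap in every panel.

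The 4 groups were fitted in 1 edgeR quasi-likelihood model over all 13765 genes, and a gene was called at a Benjamini-Hochberg adjusted p under 0.05. Fold changes are given on the log2 scale as the first group minus the second, with their standard error (SE). They come from counts scaled to TMM library sizes, in which edgeR adjusts the total of each library against the others. TPM is scaled to the library total and to the effective length of each gene in each library. Small estimates can therefore differ in sign from the TPM means. The comparisons share samples: HFpEF+Veh enters 3 of the 6 and non_failing enters 3 of the 6, so their results are not independent of each other.

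In HFpEF+Veh against non_failing hearts none of the 10 factors was called, where edgeR called 433 genes in all, or 3.15%, of which 190, or 1.38%, were lower. At an unadjusted p under 0.05, 3 factors passed (Tbx5, Gata6 and Mef2a), DESeq2 called 0 and limma on log2(TPM + 1) called 0. The estimates leaned to one side, with 9 of 10 below 0 and only Mef2d above it. Their median was -0.24, against 0.01 over all genes tested. In the same comparison 4 of the 10 cardiomyocyte markers were called lower, and their median was -0.31.

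Against HFpEF+Veh, both drugs raised Tbx5 and no other of the 10 factors was called. In HFpEF+TYA-018 against HFpEF+Veh, 1 of 10 was called where edgeR called 266 genes, or 1.93% (115 higher, 0.835%, and 151 lower, 1.1%). In HFpEF+SGLT2i against HFpEF+Veh, 1 of 10 was called where edgeR called 117 genes, or 0.85%, of which 18 were higher. Without V2523 the latter fell to 2 genes of 13801, or 0.0145%, and Tbx5 was not one of them, while 196 genes, or 1.42%, were still called between HFpEF+TYA-018 and HFpEF+Veh, Tbx5 among them. Estimates were above 0 for 9 of 10 factors with either drug, and their medians were 0.11 with TYA-018 and 0.16 with empagliflozin, against -0.01 and 0.01 over all genes.

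Between the drugs edgeR called 0 of 10 factors and 0 genes in all, or 0.0%. At an unadjusted p under 0.05, 2 factors passed (Mef2d and Nkx2-5), and DESeq2 called 185 genes, none of the 10 among them. Limma on log2(TPM + 1) also called 0 of the 10.

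Against non_failing hearts the called factors of the drug groups were Mef2 genes. Their counts were not shown to differ from the shares called over all genes. HFpEF+TYA-018 had 1 called factor (Mef2a, lower), where edgeR called 1017 genes, or 7.39% (3.39% lower). HFpEF+SGLT2i had 2 called factors (Mef2d, higher, and Mef2a, lower), where edgeR called 888 genes, or 6.45% (3.46% higher and 2.99% lower). Without V2523, which is in neither comparison but enters the shared model, the same 3 calls stood among 1123 genes (8.14%) and 953 genes (6.91%). In no comparison did 2 groups fail to overlap in any of the 10 factors. Over all genes tested, the groups did not overlap for 84 genes (0.61%) between HFpEF+Veh and non_failing, 5 (0.0363%) between HFpEF+TYA-018 and HFpEF+Veh, 2 (0.0145%) between HFpEF+SGLT2i and HFpEF+Veh, 143 (1.04%) between HFpEF+TYA-018 and non_failing and 120 (0.872%) between HFpEF+SGLT2i and non_failing.

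**Figure D2:**
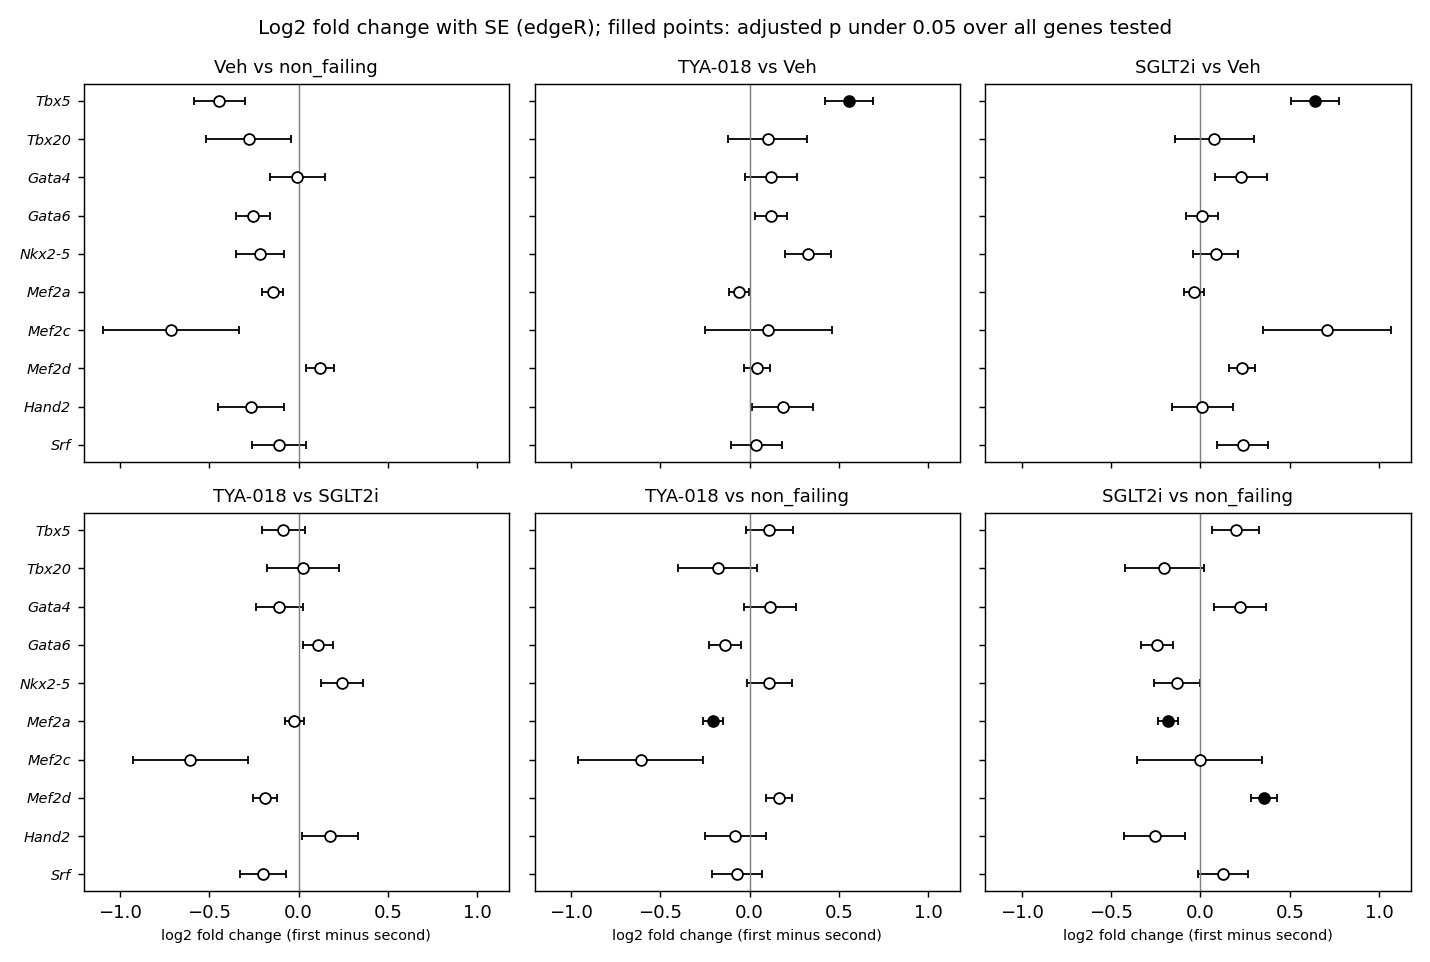
Log2 fold change (horizontal axes, first group minus second) of each of the 10 factors in the 6 comparisons, from the edgeR model over 13765 genes. Bars are the SE and filled points are adjusted p under 0.05. The 5 filled points are Tbx5 with either drug against HFpEF+Veh (0.56 and 0.64), Mef2a in either drug group against non_failing (-0.21 and -0.18) and Mef2d in HFpEF+SGLT2i against non_failing (0.35).

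Among the T-box genes, Tbx5, which sets up ventricular muscle and the conduction system, showed the clearest response to the drugs. In non_failing hearts Tbx5 ranged from 1.64 TPM (V2507) to 3.52 TPM (V2501), with a median of 3.02. In HFpEF+Veh it ranged from 1.54 TPM (V2530) to 3.22 TPM (V2521), with a median of 2.07. Most HFpEF+Veh mice sat low, and V2521 alone passed 3 TPM, a level that 4 of the 8 healthy mice exceeded with V2507 and V2509 well under it.

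With TYA-018, Tbx5 lay between 2.51 TPM (V2555) and 3.57 TPM (V2543), with a median of 2.98. With empagliflozin it lay between 1.94 TPM (V2571) and 5.07 TPM (V2563), with a median of 3.12. The TYA-018 mice were tightly bunched, at a mean of 2.99 ± 0.31 TPM (SD, n = 11), whereas the empagliflozin mice were spread, at 3.19 ± 0.84 TPM (SD, n = 11), with V2563 above every other library. Both drug groups overlapped HFpEF+Veh, with 9 of 11 TYA-018 mice (all but V2543 and V2547) and 6 of 11 empagliflozin mice inside its range.

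The mean of Tbx5 was 2.81 ± 0.68 TPM (SD, n = 8) in healthy hearts and 2.18 ± 0.52 TPM (SD, n = 8) in vehicle-treated HFpEF hearts. HFpEF+Veh stood at -0.44 on the log2 scale (SE 0.14; edgeR p = 0.0035, adjusted 0.081). TYA-018 raised Tbx5 over HFpEF+Veh by 0.56 on the log2 scale (SE 0.13), or 1.47-fold, with an edgeR adjusted p of 0.0204, and 11 of 11 libraries stood above the HFpEF+Veh mean. Empagliflozin raised it by 0.64 (SE 0.13), or 1.56-fold, with an edgeR adjusted p of 0.0061, in 10 of 11 libraries. The summed endothelial markers, with which Tbx5 fell across mice, unevenly between groups (given with the correlations), were scaled to total counts without TMM. Their medians were 946 CPM in non_failing, 1015 in HFpEF+Veh and 846 with each drug. The median was thus highest in the group where mean Tbx5 was lowest, and the part of these markers in the Tbx5 result was not tested.

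Between the drugs the Tbx5 estimate was -0.09, with a 95% interval of -0.33 to 0.16. Against non_failing it was 0.11 with TYA-018 and 0.20 with empagliflozin, and edgeR called neither (adjusted p = 0.68 and 0.44).

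The Tbx5 calls rested in part on single mice and on the choice of method. Without V2523 the estimates barely moved, at 0.58 with TYA-018 (edgeR adjusted p = 0.035), 0.66 with empagliflozin (edgeR adjusted p = 0.072) and -0.46 for HFpEF+Veh against non_failing (edgeR adjusted p = 0.073). Without V2530, the lowest HFpEF+Veh library, the TYA-018 estimate was 0.50 with an edgeR adjusted p of 0.059. HFpEF+Veh was called below non_failing without V2507 (edgeR adjusted p = 0.044), V2509 (0.041) or V2521 (0.039). Limma on log2(TPM + 1) gave 0.40 with TYA-018 (adjusted p = 0.067) and 0.46 with empagliflozin (adjusted p = 0.187), and on log2(TPM + 0.1) it gave 0.48 (adjusted p = 0.075) and 0.55 (adjusted p = 0.234).

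**Figure D3:**
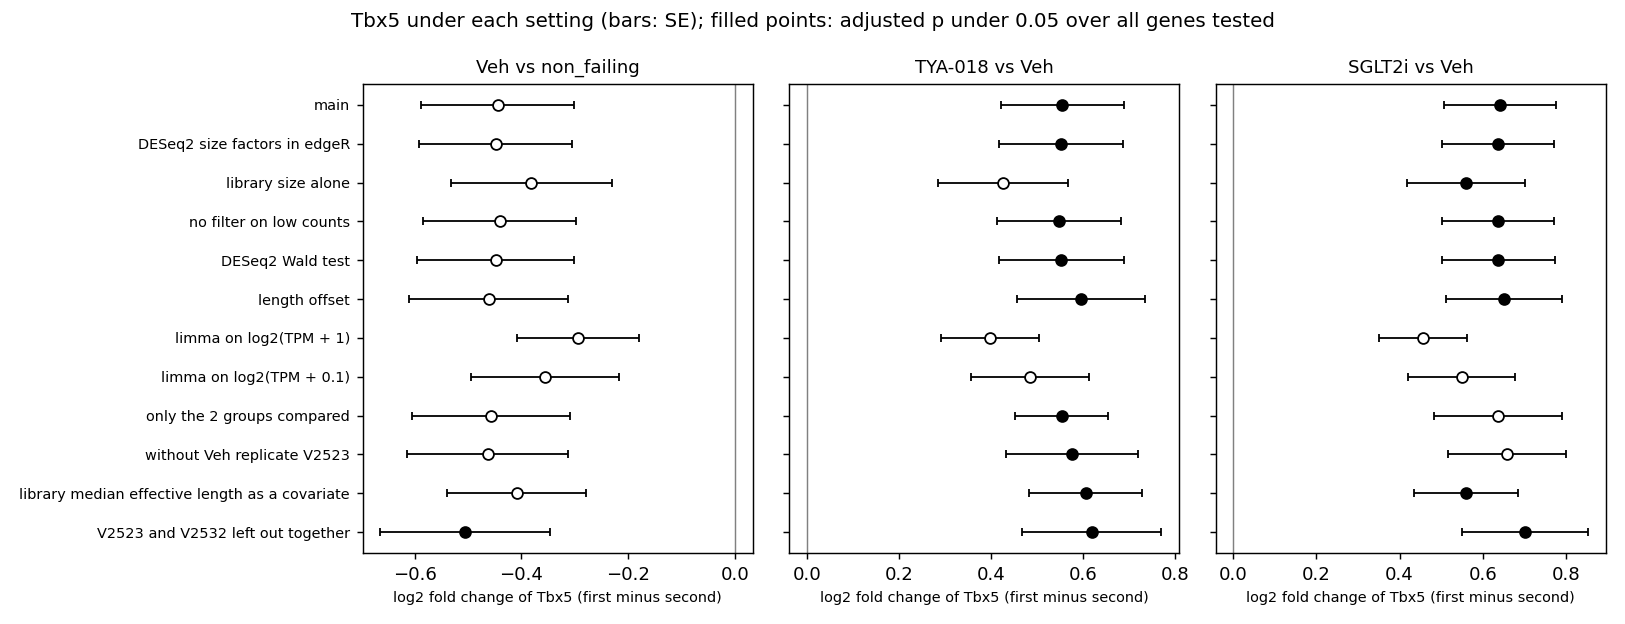
Log2 fold change of Tbx5 (horizontal axes, first group minus second) in 3 comparisons under 12 settings of the analysis, one per row. Bars are the SE and filled points are adjusted p under 0.05. Every estimate with either drug lies above 0 and every estimate for HFpEF+Veh against non_failing lies below it, while the side of the threshold changes between settings.

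Tbx20, a regulator that keeps adult heart muscle working, was not called in any comparison of the model above and varied strongly between mice. It lay between 2.78 and 5.0 TPM in non_failing (median 3.50), 2.00 and 6.05 TPM in HFpEF+Veh (median 2.83), 1.26 and 5.80 TPM with TYA-018 (median 2.87) and 1.51 and 7.06 TPM with empagliflozin (median 2.86). The groups overlapped almost fully, with V2532 highest in HFpEF+Veh, V2543 in HFpEF+TYA-018 and V2562 in HFpEF+SGLT2i. Log2 estimates were -0.28 (SE 0.24) for HFpEF+Veh against non_failing, 0.10 for TYA-018 and 0.08 for empagliflozin against HFpEF+Veh. With the median effective length of the library as a covariate, a length that Tbx20 follows closely (given with the correlations), it was called between the drugs (0.46, edgeR adjusted p = 0.030, against 0.02 without it) and in HFpEF+SGLT2i against non_failing (-0.41, edgeR adjusted p = 0.016, against -0.20).

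The share of Tbx5 in the summed TPM of Tbx5 and Tbx20 was 43.2% ± 5.8 (SD, n = 8) in healthy hearts, 41.4% ± 7.0 (SD, n = 8) in HFpEF+Veh, 51.6% ± 9.5 (SD, n = 11) with TYA-018 and 50.9% ± 8.6 (SD, n = 11) with empagliflozin. Over the 30 tests of shares made here, neither rise over HFpEF+Veh passed correction, at 10.2 points with TYA-018 (exact permutation p = 0.020, adjusted 0.069) and 9.48 points with empagliflozin (exact permutation p = 0.021, adjusted 0.069).

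The GATA factors, which cooperate with NKX2-5 and TBX5 at cardiac promoters, moved little. Gata4 had a mean of 15.1 ± 2.8 TPM (SD, n = 8) in healthy hearts, 16.4 ± 3.9 (SD, n = 8) in HFpEF+Veh, 16.2 ± 3.0 (SD, n = 11) with TYA-018 and 17.9 ± 4.4 (SD, n = 11) with empagliflozin. V2523 held the highest Gata4 level of HFpEF+Veh, 22.2 TPM, and the estimate against non_failing was -0.01 with it, from mean CPM of 46.3 and 46.5, and -0.08 without it. Estimates for the drugs against HFpEF+Veh were 0.12 and 0.23 on the log2 scale, neither called by edgeR (adjusted p = 0.70 and 0.62).

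Gata6 ranged from 11.3 to 18.1 TPM in non_failing (median 15.4), 11.7 to 15.5 TPM in HFpEF+Veh (median 13), 10.8 to 17.0 TPM with TYA-018 (median 13.3) and 9.63 to 14.9 TPM with empagliflozin (median 12.9). Healthy hearts reached the highest values, although every group overlapped them. On the log2 scale Gata6 stood at -0.25 (SE 0.10) in HFpEF+Veh against non_failing (edgeR p = 0.012, adjusted 0.16) and at -0.24 (SE 0.09) in HFpEF+SGLT2i against non_failing (edgeR p = 0.0097, adjusted 0.0999, lower in 10 of 11 libraries). The latter was called without V2562, at -0.28 with an edgeR adjusted p of 0.047.

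Within the GATA pair the balance differed between empagliflozin-treated and healthy hearts. Gata4 made up between 46.2% and 53.5% of the summed TPM of Gata4 and Gata6 in non_failing (median 51.5%) and between 51.0% and 63.4% in HFpEF+SGLT2i (median 57.8%). Every empagliflozin mouse but V2571 lay above the whole healthy range. The mean share was 50.4% ± 3.0 (SD, n = 8) against 57.8% ± 3.7 (SD, n = 11), a difference of 7.48 points (exact permutation p = 0.00025, adjusted 0.0048), in the same direction in 11 of 11 libraries. It was called in 19 of 19 runs that left out 1 library. The share was 54.8% ± 5.5 (SD, n = 8) in HFpEF+Veh and 54.2% ± 5.2 (SD, n = 11) with TYA-018, and no other GATA comparison was called.

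Nkx2-5, the homeodomain factor marking the cardiac lineage, was the most abundant of the 10. It lay between 21.2 and 47.4 TPM in non_failing (median 36.6), 26.0 and 46.5 TPM in HFpEF+Veh (median 32.1), 33.0 and 46.2 TPM with TYA-018 (median 37.2) and 21.5 and 42.1 TPM with empagliflozin (median 34.2). The TYA-018 mice lacked the low values seen in every other group.

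On the log2 scale Nkx2-5 stood at 0.33 (SE 0.13) with TYA-018 against HFpEF+Veh, above the HFpEF+Veh mean in 11 of 11 libraries, but was not called (edgeR p = 0.014, adjusted 0.16). Its estimate with empagliflozin against HFpEF+Veh was 0.09 (SE 0.13). Between the drugs it was 0.24 in favour of TYA-018, with a 95% interval of 0.01 to 0.48 (edgeR p = 0.044, adjusted 0.36).

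The Mef2 genes held the calls against healthy hearts. Mef2a, which maintains contractile and mitochondrial gene programmes in the adult heart, ranged from 20.2 TPM (V2507) to 31.1 TPM (V2503) in non_failing, with a median of 25.6. It ranged from 21.3 to 27.5 TPM in HFpEF+Veh (median 24.4), 18 to 24.7 TPM with TYA-018 (median 21.4) and 18.3 to 25.9 TPM with empagliflozin (median 23.5). The TYA-018 group sat lowest, and only V2507 of the healthy mice lay below its median.

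Mef2a fell by 0.21 on the log2 scale (SE 0.06) in HFpEF+TYA-018 against non_failing (edgeR adjusted p = 0.0176, lower in 11 of 11 libraries) and by 0.18 (SE 0.06) in HFpEF+SGLT2i against non_failing (edgeR adjusted p = 0.041, 11 of 11). The first was lost only without the healthy mouse V2503, at -0.18 with an adjusted p of 0.062, and held under every other setting tried. The second was called in 29 of 38 runs that left out 1 library, and edgeR adjusted p reached 0.117 without V2503. It was also lost with library size alone (edgeR adjusted p = 0.060), no filter (0.066), a length offset (0.144), the 2 groups alone (0.083) and limma on log2(TPM + 1) (0.216) or log2(TPM + 0.1) (0.249). Cardiomyocyte markers moved the same way in these comparisons. With TYA-018, 1 of 10 was called lower, where 3.39% of all genes were, and the marker median was -0.14. With empagliflozin, 5 of 10 were called lower, where 2.99% of all genes were, and the marker median was -0.27. Mef2a followed the sum of these markers across mice (r = 0.59, rho = 0.49, permutation p = 0.0012 and 0.0032, r = 0.36 without the 2 farthest libraries). Within groups r was 0.10 in non_failing, 0.66 in HFpEF+Veh, 0.65 with TYA-018 and 0.74 with empagliflozin. The part of these markers in the Mef2a result was not tested. The estimate for HFpEF+Veh against non_failing was -0.14 (SE 0.06, edgeR adjusted p = 0.21), and those of the drugs against HFpEF+Veh were -0.06 and -0.04, so the drug groups were not shown to differ from vehicle-treated HFpEF hearts in Mef2a.

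Mef2d, known for driving stress-dependent remodelling of the heart, showed the reverse. In non_failing it lay between 18.3 TPM (V2507) and 37.4 TPM (V2510), with a median of 25.1. In HFpEF+Veh it lay between 26.0 and 33.1 TPM (median 28.4), with TYA-018 between 20.2 and 29.9 TPM (median 27.4) and with empagliflozin between 28.4 and 38.6 TPM (median 31.3). Apart from V2510, whose next highest neighbour stood at 26.9 TPM, every healthy mouse was below every empagliflozin mouse.

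Mef2d was higher in HFpEF+SGLT2i than in non_failing by 0.35 on the log2 scale (SE 0.07), or 1.28-fold, with an edgeR adjusted p of 0.0018 and 11 of 11 libraries in that direction. It was called in 38 of 38 runs that left out 1 library, with estimates of 0.32 to 0.42, and under all 12 settings of the analysis, with adjusted p between 0.000125 and 0.0373. Against HFpEF+Veh the estimate with empagliflozin was 0.23 (SE 0.07), above the HFpEF+Veh mean in 11 of 11 libraries and not called (edgeR p = 0.0029, adjusted 0.15). It was 0.12 (SE 0.08) for HFpEF+Veh against non_failing and 0.16 (SE 0.07) for HFpEF+TYA-018 against non_failing (edgeR adjusted p = 0.17), which was called at 0.23 without V2510 (edgeR adjusted p = 0.031). Between the drugs it was -0.19, with a 95% interval of -0.33 to -0.05 (edgeR p = 0.0072, adjusted 0.198).

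Mef2c, essential in the embryonic heart, was scarce and variable. It ranged from 0.77 to 2.48 TPM in non_failing (median 1.5), 0.59 to 1.40 in HFpEF+Veh (median 0.85), 0.06 to 2.08 with TYA-018 (median 0.91) and 0.84 to 2.64 with empagliflozin (median 1.33). The lowest library, V2555 of HFpEF+TYA-018, held 14.4 expected counts of Mef2c. Log2 estimates were -0.71 (SE 0.38) for HFpEF+Veh against non_failing (edgeR adjusted p = 0.36) and 0.71 (SE 0.36) for empagliflozin against HFpEF+Veh (edgeR adjusted p = 0.51), sizes above those of the called genes but within the spread of Mef2c. Between the drugs the 95% interval ran from -1.26 to 0.05.

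Together these differences shifted the make-up of Mef2 transcripts. Mef2a gave 48.9% ± 4.5 (SD, n = 8) of the summed TPM of Mef2a, Mef2c and Mef2d in healthy hearts, 44.9% ± 2.4 (SD, n = 8) in HFpEF+Veh, 43.6% ± 3.1 (SD, n = 11) with TYA-018 and 40.9% ± 2.9 (SD, n = 11) with empagliflozin. Mef2d gave 48.2% ± 4.4, 53.4% ± 2.9, 54.5% ± 3.7 and 56.4% ± 3.0 in the same groups, and Mef2c gave 2.85% ± 1.31, 1.77% ± 0.49, 1.92% ± 1.32 and 2.68% ± 1.12. Healthy hearts thus held nearly equal shares of Mef2a and Mef2d, while Mef2d was the major form in each HFpEF group. The healthy mouse V2510 was the exception, with 38.8% Mef2a and 57.4% Mef2d.

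In exact permutation tests adjusted over the 30 share tests, the Mef2a share fell by 7.96 points in HFpEF+SGLT2i against non_failing (adjusted p = 0.0049, 11 of 11 libraries) and fell by 5.29 points in HFpEF+TYA-018 against non_failing (adjusted p = 0.046, 10 of 11). The Mef2d share was higher by 8.13 points with empagliflozin (adjusted p = 0.0048 in the exact permutation test) and by 6.22 points with TYA-018 (adjusted p = 0.041). Empagliflozin against HFpEF+Veh lowered the Mef2a share by 3.91 points (exact permutation, adjusted p = 0.046), a call lost without V2523 (-3.56 points, adjusted p = 0.077). The shares of HFpEF+Veh and non_failing were not separated at the threshold, at -4.05 points for Mef2a (adjusted p = 0.089, exact permutation) and 5.13 points for Mef2d (adjusted p = 0.069, exact permutation).

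Leaving out 1 library at a time, the calls of both shares between HFpEF+SGLT2i and non_failing held in 19 of 19 runs. The TYA-018 calls against non_failing held in 4 of 19 runs for Mef2a, whose adjusted p was also 0.056 when V2523 was left out of the family of tests, and in 10 of 19 for Mef2d. The Mef2a call of empagliflozin against HFpEF+Veh held in 7 of 19.

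**Figure D4:**
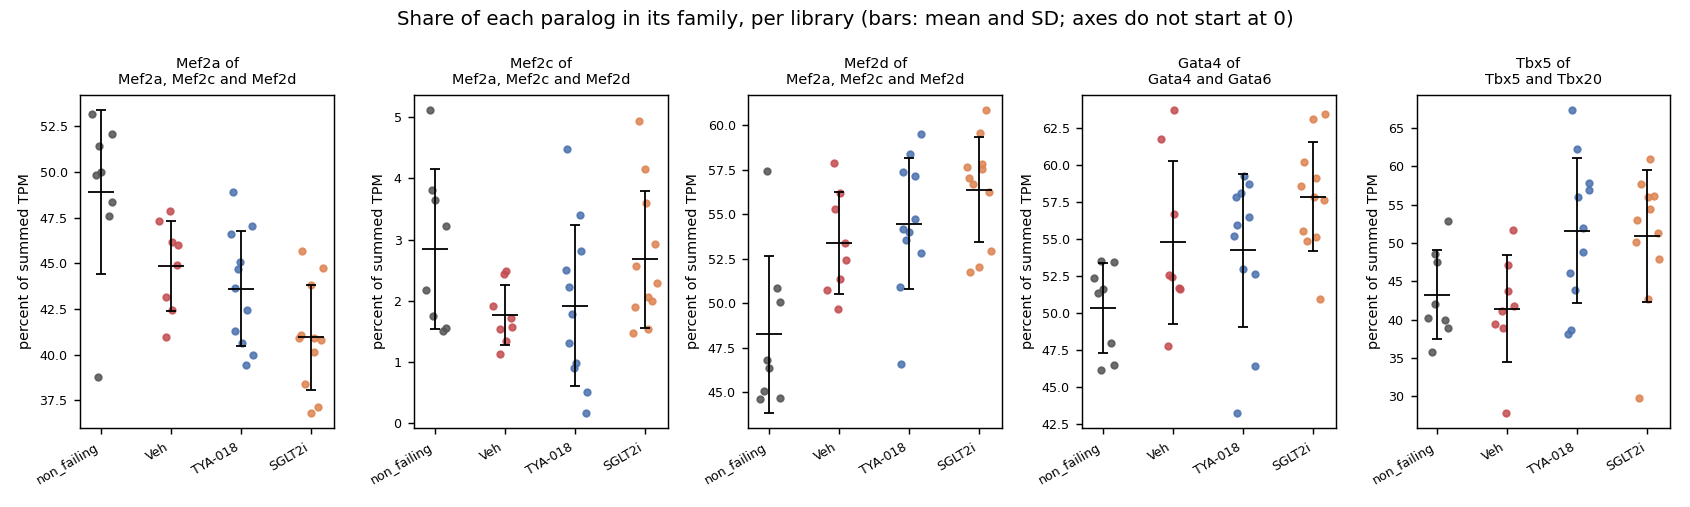
Percent of summed TPM contributed by 1 gene of a family (vertical axes, which do not start at 0) in each library, by group on the horizontal axis; points are libraries and bars are the mean and SD. The Mef2a share runs from a mean of 48.9% in non_failing to 40.9% in HFpEF+SGLT2i, the Mef2d share from 48.2% to 56.4% and the Gata4 share from 50.4% to 57.8%.

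Hand2 was not called in any comparison. It lay between 9.84 and 27.5 TPM in non_failing (median 22.0), 14.8 and 25.1 TPM in HFpEF+Veh (median 17.6), 14.5 and 31.2 TPM with TYA-018 (median 17.7) and 10.8 and 28.1 TPM with empagliflozin (median 16.7). Healthy mice had the highest median and also the lowest single value, in V2507. On the log2 scale the estimates were -0.26 (SE 0.18) for HFpEF+Veh and -0.25 (SE 0.17) for HFpEF+SGLT2i against non_failing, and 0.18 (SE 0.17) for TYA-018 against HFpEF+Veh.

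Srf, the factor that binds the CArG boxes of actin and immediate early genes and whose own promoter is printed above with its CArG boxes in capitals, was also not called. It lay between 12.8 and 18.3 TPM in non_failing (median 15.6), 10.7 and 21.2 TPM in HFpEF+Veh (median 14.9), 10.9 and 20.2 TPM with TYA-018 (median 14.4) and 11.2 and 24.8 TPM with empagliflozin (median 16.8). The HFpEF groups spread to both sides of the healthy range. The log2 estimate was -0.11 (SE 0.15) for HFpEF+Veh against non_failing, 0.04 for TYA-018 and 0.24 (SE 0.14) for empagliflozin against HFpEF+Veh, and between the drugs it was -0.20, with a 95% interval of -0.46 to 0.06.

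The intervals of the remaining factors between the drugs were -0.39 to 0.44 for Tbx20, -0.37 to 0.16 for Gata4, -0.06 to 0.27 for Gata6, -0.13 to 0.08 for Mef2a and -0.14 to 0.49 for Hand2. These are 95% intervals of the log2 difference, HFpEF+TYA-018 minus HFpEF+SGLT2i. They are narrowest for Mef2a and widest for Tbx20 among these 5.

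Without V2523 none of the 9 factors other than Tbx5 was called in a comparison with HFpEF+Veh, as with it. For HFpEF+Veh against non_failing the log2 estimates without it were -0.30 for Tbx20, -0.25 for Gata6, -0.24 for Nkx2-5, -0.13 for Mef2a, -0.71 for Mef2c, 0.14 for Mef2d, -0.30 for Hand2 and -0.16 for Srf. With TYA-018 against HFpEF+Veh they were 0.12 for Tbx20, 0.19 for Gata4, 0.12 for Gata6, 0.35 for Nkx2-5, -0.07 for Mef2a, 0.10 for Mef2c, 0.03 for Mef2d, 0.22 for Hand2 and 0.10 for Srf. With empagliflozin against HFpEF+Veh they were 0.10 for Tbx20, 0.30 for Gata4, 0.11 for Nkx2-5, -0.05 for Mef2a, 0.70 for Mef2c, 0.21 for Mef2d, 0.04 for Hand2 and 0.29 for Srf, and Gata6 stayed near 0 (0.0026). The directions matched those with V2523.

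Genes that work with the factors were followed as lists, with the share called over all genes given beside each count. Of 23 other cardiac transcription factors, such as Irx4, Hopx and Tead1, 19 were tested and the rest were too low to test. In all 6 comparisons edgeR called 0 of the 19, where between 0.0% and 7.39% of all genes were called. This list was therefore not shown to differ from all genes. Of 14 cofactors, all tested, Myocd, the coactivator of SRF in heart and smooth muscle, was called lower in every HFpEF group than in non_failing. Of all genes, 1.38% were called lower in HFpEF+Veh, 3.39% with TYA-018 and 2.99% with empagliflozin. The mean of Myocd was 3.79 ± 0.48 TPM (SD, n = 8) in non_failing and 2.48 ± 0.80 TPM (SD, n = 8) in HFpEF+Veh, a log2 change of -0.69 (SE 0.19, edgeR adjusted p = 0.031). Against non_failing it was -0.68 with TYA-018 (edgeR adjusted p = 0.0103) and -0.67 with empagliflozin (edgeR adjusted p = 0.0135). Mkl2, a relative of Myocd that senses actin, was higher in HFpEF+SGLT2i than in non_failing by 0.36 (SE 0.10, edgeR adjusted p = 0.020). In that comparison 3.46% of all genes were called higher.

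Of 17 textbook target genes of GATA4, NKX2-5, TBX5 or MEF2, 16 were tested, and Slc8a1 is listed at 0. In HFpEF+Veh against non_failing 3 were called lower and 0 higher: the troponins Tnnt2 (-0.43) and Tnni3 (-0.34) and the myosin light chain Myl2 (-0.37), where 1.38% of all genes were called lower and 1.77% higher. The median of the 16 was -0.23 on the log2 scale against 0.01 for all genes. Since Tnnt2, Tnni3 and Myl2 are also cardiomyocyte markers, this count and that of the markers are not independent.

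With TYA-018 against HFpEF+Veh 1 of 16 targets was called, where 1.93% of all genes were called (1.1% lower). This was Nppb, the stress-responsive natriuretic peptide gene. It fell from 440 ± 103 TPM (SD, n = 8) to 222 ± 79 TPM (SD, n = 11), by 0.86 on the log2 scale (edgeR adjusted p = 0.030). With empagliflozin against HFpEF+Veh 0 of 16 were called, where 0.85% of all genes were, and Nppb stood at -0.69 (edgeR adjusted p = 0.156). Gja1, the gap junction gene of ventricular muscle, was lower than in non_failing by 0.44 with TYA-018 (edgeR adjusted p = 0.036) and by 0.63 with empagliflozin (edgeR adjusted p = 0.0022). In HFpEF+TYA-018 against non_failing 3.39% of all genes were called lower. In HFpEF+SGLT2i against non_failing 5 targets were lower and 0 higher, namely Tnnt2, Tnni3, Tnnc1, Gja1 and Myl2, where 2.99% of all genes were called lower and 3.46% higher.

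Of 14 SRF targets, all tested, Acta1, the skeletal actin gene of the fetal and stressed heart, was higher in every HFpEF group than in non_failing, by 1.48 in HFpEF+Veh, 1.52 with TYA-018 and 1.44 with empagliflozin on the log2 scale. Its mean rose from 61.8 ± 19.5 TPM (SD, n = 8) in non_failing to 188 ± 36 TPM (SD, n = 8) in HFpEF+Veh (edgeR adjusted p = 0.0014). Acta2, the smooth muscle actin gene, was higher by 0.67 with TYA-018 (edgeR adjusted p = 0.044) and Actb lower by 0.38 with empagliflozin (edgeR adjusted p = 0.026), both against non_failing. Against non_failing, 1.77% of all genes were called higher in HFpEF+Veh, 4.0% with TYA-018 and 3.46% with empagliflozin. With empagliflozin 2.99% were called lower. The median of the 14 was 0.09 in HFpEF+Veh against non_failing. None was called with TYA-018 or empagliflozin against HFpEF+Veh, where 1.93% and 0.85% of all genes were called. Without V2523 every call of these 4 lists named here stood, with Myocd at -0.63 (edgeR adjusted p = 0.0498), Acta1 at 1.48 and Tnnt2 at -0.44 in HFpEF+Veh against non_failing and Nppb at -0.89 with TYA-018 against HFpEF+Veh (edgeR adjusted p = 0.040). Gja1 (-0.50, edgeR adjusted p = 0.0498) and Acta2 (0.77, edgeR adjusted p = 0.047) were then also called in HFpEF+Veh against non_failing.

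Many pairs of factors were positively correlated across mice. The share among other gene pairs was not computed, so these counts were not shown to be particular to the factors. After the group means were removed from log2 CPM, 28 of the 45 pairs were positively correlated and 1 negatively at a Benjamini-Hochberg adjusted permutation p under 0.05 by Pearson's r, and 31 were called by Spearman's rho. The median r was 0.52. The closest pairs were Tbx20 with Gata4 (r = 0.84, rho = 0.88), Gata4 with Nkx2-5 (r = 0.80, rho = 0.84), Tbx5 with Nkx2-5 (r = 0.79, rho = 0.71) and Tbx5 with Gata4 (r = 0.77, rho = 0.74). For these 4 the permutation p of r was 1e-05, the smallest that 100000 permutations can give (adjusted 5e-05), that of rho was at most 2e-05, and without the 2 libraries farthest from the median r was 0.81, 0.79, 0.78 and 0.69. The negative pair was Tbx20 with Mef2d (r = -0.39, permutation p = 0.013, adjusted 0.022; rho = -0.41, permutation p = 0.015, adjusted 0.022). The counts were 28 and 1 without V2523 as well.

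Part of this shared variation followed a property of the libraries. The median effective length, the mean transcript length that the authors' estimate assigned to a gene in a library and taken here as the median over genes, differed between libraries from 1785 bases (V2555) to 2355 bases (V2562). After group means were removed, Tbx20 followed it most closely (r = 0.84, rho = 0.86, permutation p = 1e-05 for both, r = 0.80 without the 2 farthest libraries), ahead of Srf (r = 0.74, rho = 0.71), Gata4 (r = 0.69, rho = 0.79) and Hand2 (r = 0.63, rho = 0.67), whose permutation p was at most 1e-04. Without the 2 farthest libraries r was 0.64, 0.70 and 0.60 for these. Non_failing went apart for Srf, with r = -0.37 there against 0.85 in HFpEF+Veh, 0.84 with TYA-018 and 0.88 with empagliflozin, and r of Gata4 in non_failing was 0.31. Tbx5 followed it less closely (r = 0.44, rho = 0.54, permutation p = 0.0030 and 0.00022), and Mef2d had r = -0.27 and rho = -0.34 (permutation p = 0.12 and 0.053). Tbx20 also rose with the total count of the library (r = 0.61, rho = 0.61, permutation p = 0.00032 and 0.00024, r = 0.53 without the 2 farthest). Within HFpEF+TYA-018 its r with the total count was 0.16. Adjusted over the 10 factors, 5 passed with the total count by Pearson's r and 4 by Spearman's rho. With the median effective length 8 passed by each. Shares among all tested genes were not computed for either property. With the median effective length also removed, 22 positive pairs and 0 negative pairs were called by Pearson's r and 10 by Spearman's rho, and the median r was 0.33. Gata4 with Nkx2-5 (r = 0.75), Tbx5 with Nkx2-5 (r = 0.74), Tbx5 with Gata4 (r = 0.72) and Tbx20 with Gata4 (r = 0.67) stayed the closest, whereas Tbx20 with Hand2 went from 0.54 to 0.01.

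Some factors also followed the summed markers of cell types. With the cardiomyocyte sum 5 of the 10 passed by Pearson's r and 3 by Spearman's rho (adjusted over the 10), and with the endothelial sum 8 passed by each, all but Mef2c (r = -0.10) and Mef2d (r = 0.20). The share among all tested genes was not computed, so these counts were not shown to be particular to the factors either. With group means removed, Nkx2-5 rose with the summed cardiomyocyte markers (r = 0.59, rho = 0.49, permutation p = 0.00043 and 0.0030) and fell with the summed endothelial markers (r = -0.72, rho = -0.65, permutation p = 3e-05 and 1e-04). Tbx5 had r = 0.50 (rho = 0.38, permutation p = 0.0036 and 0.022) with the first and r = -0.68 (rho = -0.62, permutation p = 4e-05 and 0.00023) with the second. Adjusted over the 10 factors, the p of rho with the cardiomyocyte sum was 0.055 for Tbx5 and 0.0105 for Nkx2-5. Gata4 had r = -0.68 (rho = -0.63, permutation p = 5e-05 and 8e-05) with the endothelial sum. Without the 2 farthest libraries r with the endothelial sum was -0.64 for Nkx2-5 and -0.60 for both Tbx5 and Gata4. Within groups r of Nkx2-5 with that sum was -0.85 in non_failing, -0.24 in HFpEF+Veh, -0.25 with TYA-018 and -0.93 with empagliflozin. That of Tbx5 was -0.77 in non_failing, -0.42 in HFpEF+Veh, -0.23 with TYA-018 and -0.82 with empagliflozin. The 7 endothelial markers summed to 770 to 1162 CPM in non_failing, 894 to 1270 in HFpEF+Veh, 687 to 1011 with TYA-018 and 721 to 1477 with empagliflozin, where the highest sum was that of V2571, the library with the lowest Tbx5 of its group. These correlations share libraries and scaling factors, and the part of these marker levels in the differences between groups was not tested.

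**Figure D5:**
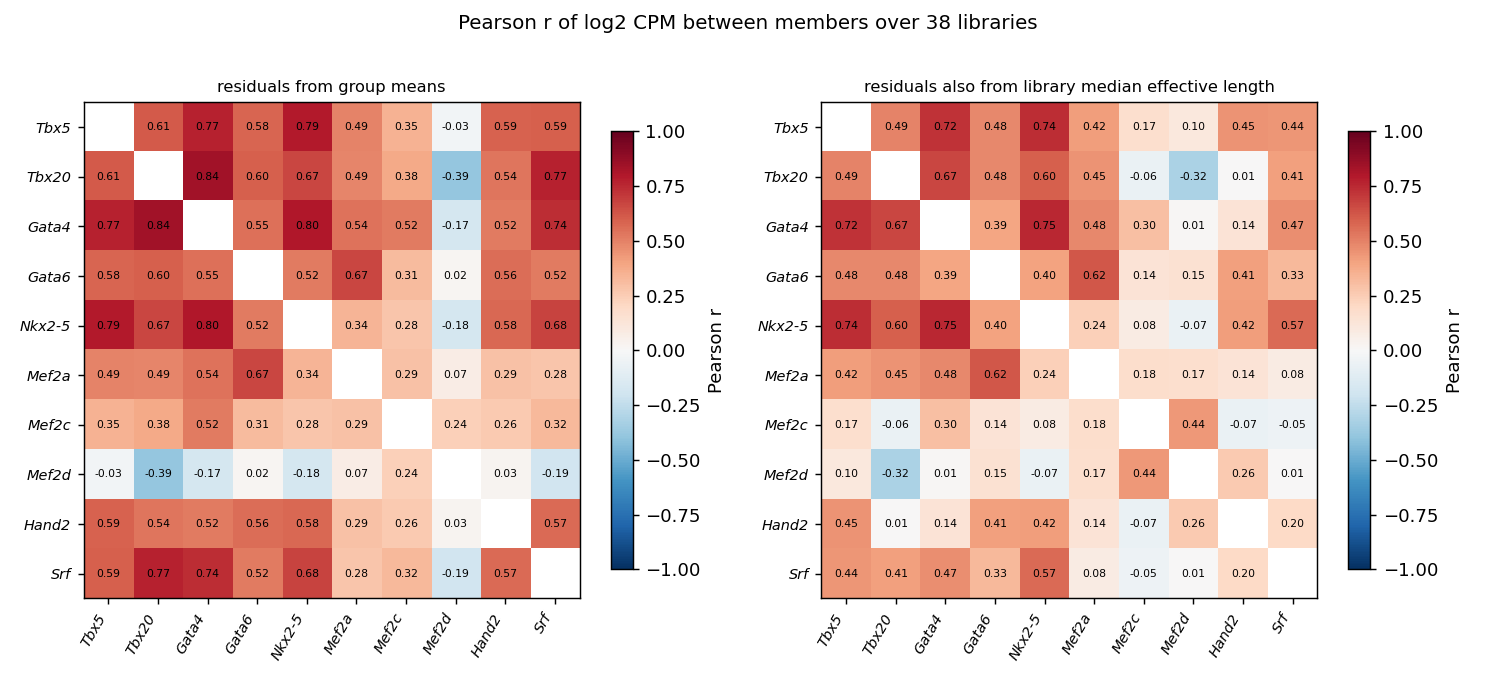
Pearson's r of log2 CPM between each pair of the 10 factors over 38 libraries (both axes list the genes; colour and printed values give r from -1 to 1), with group means removed on the left and the library median effective length removed as well on the right. The pairs among Tbx5, Gata4 and Nkx2-5 lie between 0.77 and 0.80 on the left and between 0.72 and 0.75 on the right, and the row of Mef2d is pale on the left.

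The genes whose log2 CPM followed each factor most closely over the 38 libraries, among 13755 other tested genes and with no test, differed from factor to factor. They were Selenbp1 (r = 0.82), Pdp2 (0.79) and Kcnk3 (0.78) for Tbx5, and Cdh2 (0.94), Msi2 (0.94) and Bmpr1a (0.93) for Tbx20. For Gata4 they were Ank1 (0.90), Prob1 (0.89) and Acsl1 (0.88), and for Gata6 Car14 (0.79), Aldh6a1 (0.77) and Homer1 (0.75). Nkx2-5 was followed by Kcng2, Vegfb and Mrpl45 (0.91 each). Mef2a was followed by Efr3a (0.83), Ehbp1 (0.82) and Limch1 (0.80), Mef2c by Man2a2 (0.75), Aarsd1 (0.71) and Arhgef11 (0.69), and Mef2d by Slc25a22 (0.90), Acacb (0.85) and Cacna1c (0.85). Hand2 was followed by D5Ertd579e, Nudcd3 and Hdlbp (0.74 each) and Srf by Eprs, Gstm1 and Msra (0.83 each). No gene stood in 2 of these 10 lists.

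The mean effective length of a gene, which can move with the mix of its transcripts and also with the library, was compared too. That of Hand2, with 1 annotated transcript, ran from 1368 to 2096 bases over the libraries. A difference in length therefore does not by itself show a change of transcripts. In limma on log2 length, 0 of 10 factors were called in 5 of the 6 comparisons, where 0 genes, or 0.0%, were called in all. Between HFpEF+TYA-018 and HFpEF+SGLT2i Tbx20 alone was called, longer by 0.06 on the log2 scale (limma adjusted p = 0.049), where 1451 genes, or 10.5%, were called. With lengths centred on the library median 0 of 10 and 102 genes, or 0.741%, were called. In the 5 comparisons without a call, 3 lengths had an unadjusted limma p under 0.05, those of Tbx20 with TYA-018 against HFpEF+Veh and against non_failing and of Mef2d with empagliflozin against non_failing.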

How the data were processed

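Left ventricular RNA of 38 mice was sequenced after poly(A) selection. The authors trimmed reads with fastp, quantified transcripts with Salmon 1.6.0 on the mouse GENCODE annotation of GRCm38 and summed them to genes with tximport, and deposited 3 tables: expected counts (not whole numbers, unnormalized), TPM (scaled for length and depth) and the effective length of each gene in bases, a signal-like value that the authors' bias corrections change from library to library. The labels also list a human build, which the mouse gene identifiers do not bear out. No expression column was left unmapped (0 columns).

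Expected counts were rounded and tested with edgeR 4.0.16 (R 4.3.3; filterByExpr, TMM, quasi-likelihood test, Benjamini-Hochberg adjustment over 13765 genes), the 4 groups in 1 model. CPM of the factors used TMM library sizes, with a prior count of 2 on the log scale. The ranges and medians of marker CPM were scaled to the total count of the library alone, without TMM. Effective lengths were tested on the log2 scale with limma 3.58.1. Shares of TPM were compared by two-sided exact permutation tests, or 100000 permutations between the drug groups, and correlations by 100000 permutations within groups (numpy 2.4.6, scipy 1.17.1, pandas 2.3.3). All tests are two-sided. The 95% intervals use 34 residual degrees of freedom. Each script was tested on simulated data.

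Groups came from the sample titles. The 10 factors and all gene lists were chosen with earlier results of these data known. All 10 were named in every comparison; of the other lists (other cardiac transcription factors, cofactors, cardiac targets, SRF targets) the called genes, up to 5 per comparison, were named, and for each factor the 3 genes with the highest Pearson's r. Alternatives were DESeq2 1.42.0 size factors, library size alone, no filter, the DESeq2 Wald test, a length offset, limma on log2(TPM + 1) and log2(TPM + 0.1), only the 2 groups compared, and each library left out. Chosen after seeing the data were the library median effective length as a covariate or removed from correlations, centred lengths, leaving out V2523 with V2532, and leaving out V2523 for the other lists.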

Additional observations from a re-analysis of the deposited data

Results flagged for a closer look

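In 30 groups of 8 libraries tested for a value far from the others (levels and shares of the 10 factors; groups of 11 were not tested), 3 had a gap to the nearest library above Dixon's 95% critical value of 0.526 of the group's range. Chance alone gives about 1 such group in 20. Tbx20 in HFpEF+Veh stood at 6.05 TPM in V2532, where the nearest library had 3.86 and the lowest 2.00 TPM. Mef2d in non_failing stood at 37.4 TPM in V2510, where the nearest had 26.9 and the lowest 18.3 TPM. In the same mouse the Mef2a share of Mef2 transcripts was 38.8%, where the nearest library had 47.6% and the highest 53.2%. The last 2 come from 1 library and are not separate signs.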

How the results depend on the processing

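Of 2880 refitted log2 changes of the 10 factors, 97 had the other sign than the value reported, 0 of them for a called change. Leaving out 1 library at a time, the number of factors called ran from 0 to 1 for HFpEF+Veh against non_failing, 0 to 1 for TYA-018 and 0 to 1 for empagliflozin against HFpEF+Veh, 0 to 0 between the drugs, 0 to 2 for TYA-018 and 1 to 3 for empagliflozin against non_failing. By effective length it ran from 0 to 2 between the drugs. For TYA-018 against HFpEF+Veh 0 factors were called with library size alone (Tbx5 adjusted p = 0.053, edgeR), 0 by limma on log2(TPM + 1) and 0 on log2(TPM + 0.1), and 2 with the library median effective length as a covariate (Tbx5 and Nkx2-5). For empagliflozin against HFpEF+Veh 0 were called by limma with either pseudocount and 0 in a fit of the 2 groups alone (edgeR adjusted p of Tbx5 = 0.168). For empagliflozin against non_failing 1 factor, Mef2d, was called with library size alone, no filter, a length offset, limma with either pseudocount or the 2 groups alone, and 4 with the length covariate (Mef2d, Mef2a, Tbx20 and Gata6). That covariate called 1 factor between the drugs (Tbx20, 0.46, edgeR adjusted p = 0.030). Without V2523 and V2532 together 1 factor was called between HFpEF+Veh and non_failing (Tbx5, -0.51, edgeR adjusted p = 0.048). By effective length between the drugs 0 were called among genes of at least 5 TPM and 0 with centred lengths. With library size alone the median of all genes was -0.14 for TYA-018 against HFpEF+Veh, against -0.01 with TMM. The cause of these changes was not tested.

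Shares from expected counts in place of TPM passed the threshold for Mef2d in HFpEF+Veh against non_failing (5.23 points) and empagliflozin against HFpEF+Veh (3.9), and for Tbx5 with TYA-018 (6.60) and empagliflozin (8.19) against HFpEF+Veh and empagliflozin against non_failing (6.73). With 1 library left out, the Mef2a share difference ran from -5.49 to -3.44 points for HFpEF+Veh against non_failing, -4.46 to -3.48 for empagliflozin against HFpEF+Veh and -6.74 to -4.68 for TYA-018 against non_failing. That of Mef2d ran from 4.48 to 6.44 for HFpEF+Veh and from 5.71 to 7.53 for TYA-018, both against non_failing. That of Tbx5 ran from 8.25 to 11.7 for TYA-018 and 7.54 to 11.6 for empagliflozin against HFpEF+Veh, and from 6.61 to 9.80 for empagliflozin against non_failing. No paired analysis was possible because the mouse numbers in the titles differ between all groups. Expected counts of Mef2c ran from 14.4 to 693 per library.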
